A study of Mus musculus with 9 samples.

Results

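Car4, Fndc3c1 and Ccdc194 are 3 mouse genes that lay at or near 0 counts in embryonic stem cells kept in self-renewal medium and were expressed 72 h after that medium was withdrawn, with or without an inhibitor of branched actin. They were selected on exactly these values, low counts with LIF2i and expression after withdrawal, among 35975 annotated genes, so their levels with and without the self-renewal factors are given below as a description, with no test. The inhibitor was set against its control, both after withdrawal, in a test. The choice did not use that difference, but it required expression with the inhibitor as well, so a gene lost with CK666 would not have been among the 3.

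Poly-A RNA was sequenced from E14, a mouse embryonic stem cell line, in 3 groups of 3 cultures whose numbered replicates the study's design calls paired. The group with LIF2i stayed for the whole experiment in medium holding the cytokine LIF, the MEK inhibitor PD0325901 and CHIR99021, which inhibits glycogen synthase kinase-3β. The control group without LIF2i had all of these removed for 72 h. The CK666 group had them removed for 72 h while 80 µM CK666, an inhibitor of the Arp2/3 complex that nucleates branched actin filaments, was present from the moment of withdrawal. CK666 was dissolved in DMSO, and no label states that DMSO was also given to the controls, so drug and solvent cannot be told apart. All groups are the same line in serum-containing medium, and no other genotype was compared.

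LIF and the pair of kinase inhibitors hold mouse embryonic stem cells in the naive state of pluripotency, and their removal lets the cells move on through a formative state towards the embryonic lineages. Carbonic anhydrases are zinc enzymes that interconvert carbon dioxide and bicarbonate. Car4 encodes the form held to the outer face of the plasma membrane by a lipid anchor, where it works next to bicarbonate transporters. Fndc3c1 is an X-linked gene for a protein built of fibronectin type III domains and is related to Fndc3a and Fndc3b. Ccdc194 is annotated as a coiled-coil domain gene.

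Car4 (ENSMUSG00000000805.18) lies on the plus strand of chromosome 11 from 84957786 to 84966044 in GRCm38. Fndc3c1 (ENSMUSG00000033737.14) lies on the minus strand of chromosome X from 106420041 to 106485401. Ccdc194 (ENSMUSG00000108900.1) lies on the minus strand of chromosome 8 from 71520120 to 71525711. No exonic base of these 3 genes is shared with another annotated gene. The microRNA gene Gm27428 and the pseudogene Gm7850 overlap the spans of Fndc3c1 and Ccdc194 on the opposite strand, outside their exons.

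Their promoters are shown because the 3 genes go from near 0 to expressed in the same groups, so a reader can compare the sequence before each start. The sequences are those of RefSeq (GRCm38.p6), read 5′ to 3′ on the strand of the gene, with CpG pairs in capitals. For Car4 and Ccdc194 they are the 250 bases before the RefSeq start, at chr11:84957504-84957753 (plus strand) and chr8:71525726-71525975 (minus strand). For Fndc3c1 only the 78 bases at chrX:106485402-106485479 (minus strand) are printed, which lie before every annotated start of that gene.
Car4: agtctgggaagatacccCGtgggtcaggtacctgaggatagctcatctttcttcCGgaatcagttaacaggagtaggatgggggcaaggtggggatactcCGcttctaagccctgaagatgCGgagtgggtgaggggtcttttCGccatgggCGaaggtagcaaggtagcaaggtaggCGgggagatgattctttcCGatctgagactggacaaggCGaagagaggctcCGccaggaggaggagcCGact
Fndc3c1: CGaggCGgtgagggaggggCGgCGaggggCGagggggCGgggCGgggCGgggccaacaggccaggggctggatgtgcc
Ccdc194: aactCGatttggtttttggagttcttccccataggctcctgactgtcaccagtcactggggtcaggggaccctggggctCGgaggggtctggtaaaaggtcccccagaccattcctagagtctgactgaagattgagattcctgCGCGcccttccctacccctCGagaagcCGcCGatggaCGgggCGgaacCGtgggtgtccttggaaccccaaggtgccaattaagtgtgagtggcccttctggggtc

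In the 250 bases before the RefSeq start, Car4 held 11 CpG pairs at a GC content of 56.4%, Fndc3c1 14 at 64.0% and Ccdc194 10 at 58.8%. The median over 32851 RefSeq promoters of the same length was 6 CpG pairs at 52.4% GC. Between 29.4% and 37.8% of all promoters held as many CpG pairs as each of these 3, so none of them lay at the far end of that range. Among 9 motifs searched on both strands, GGGCGG, the GC box, matched 4 times for Fndc3c1, all within the bases printed, and once for Ccdc194, and it occurred in 32.7% of all promoters. An ETS factor core, CCGGAA, matched for Car4 on both strands of one overlapping site, and occurred in 12.0% of promoters. GGAATG, a core bound by TEAD factors, matched once for Ccdc194 and occurred in 12.6%. No match in the 3 windows was found for the TATA box (TATAAA), the octamer bound by POU factors (ATGCAAAT), the OTX factor core (GGATTA), the CArG box, the AP-1 site (TGANTCA) or the E-box (CACGTG), held by 1.47% to 12.4% of all promoters.

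The libraries held 16894327 to 22550952 estimated counts each. Levels are given as CPM, the usual count unit relative to library size, here after TMM scaling, and as TPM, which also divides by transcript length. TPM alone is used to compare the levels of genes, but the search for genes with a like switch used counts and CPM. A count of 0 in a library allows up to 3 counts by counting error, or 0.147 to 0.182 CPM in the libraries with LIF2i. LIF2i replicate 1 stood apart: 15701 genes were above 0 there, against 17309 to 18767 in the other 8 libraries, although its depth was the 2nd highest. It was at 0 for 249 genes that had at least 10 counts in both other libraries with LIF2i, where the same count was 5 for replicate 2 and 12 for replicate 3. Its zeros are therefore weaker evidence of a low level than the limit of 3 counts states, and each ratio to the level with LIF2i is also given without it, a choice made after the data were seen. These limits and the intervals on ratios cover counting error only, since PCR copies are not separate molecules. In bulk RNA, fewer cells that express a gene and less RNA per cell cannot be told apart.

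The cells carried the markers of the labelled line. Summed over Pou5f1, Sox2, Lin28a and Sall4, pluripotency transcripts reached 1980 to 2360 TPM with LIF2i, 1639 to 2233 without it and 1690 to 2184 with CK666. Most of this sum is Pou5f1, which did not pass the test on withdrawal in edgeR. Sox2 fell from 335 to 98.8 TPM (log2 change -1.84), and Lin28a rose from 86.4 to 337 TPM (1.82). Sall4 went from 92.2 to 79.2 TPM (-0.31), with an adjusted p of 0.039 in edgeR, and was not called without the pairing (0.68). Summed over 7 naive markers (Esrrb, Klf4, Tfcp2l1, Zfp42, Nanog, Tbx3, Prdm14), levels were 1316 to 3048 TPM with LIF2i, 145 to 258 without it and 247 to 323 with CK666. Summed over 6 formative markers (Fgf5, Otx2, Dnmt3b, Pou3f1, Lef1, Dnmt3a), they were 73.5 to 117, 485 to 1450 and 346 to 1191 TPM in the same order. Red cell and capillary endothelium are tissues known for Car4 or its relatives. Of the erythroid markers, the globins Hba-a1 and Hbb-bt together never passed 1.10 TPM in any library, with Hba-a1 at 0 with LIF2i and Hbb-bt at 0 in the other groups. Of 3 endothelial markers, Cdh5 and Kdr stayed at means of at most 0.185 TPM in each group, while Pecam1, which embryonic stem cells also express, went from 88.6 to 5.97 TPM. The summed trophoblast markers were at 41.7 to 55.3 TPM with LIF2i, nearly all of it Tfap2c, and at no more than 9.84 TPM in the other groups. Primitive endoderm markers reached at most 8.95 TPM with LIF2i and 30.9 without it, mesoderm 9.70, neural 19.9 and 2-cell-like 3.19 TPM in any library. Most of the primitive endoderm sum without LIF2i was Dab2, which went from a mean of 2.41 to 12.5 TPM. Of the 4 primitive endoderm markers tested, only Dab2 was called on withdrawal. Of the fibroblast markers Thy1 was the most abundant, at 4.87 TPM with LIF2i and 23.0 without it. The part of marker changes in the levels below was not tested.

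Car4 had 0, 5 and 0 counts in the 3 replicates with LIF2i. In the control without LIF2i it stood at 50.6, 146 and 69.2 CPM in replicates 1 to 3. With CK666 it stood at 76.9, 111 and 132 CPM. Every library without LIF2i was far above every library with it, and the control and CK666 groups overlapped, with control replicate 2 the highest of all. The group means were 88.6 ± 50.6 CPM without LIF2i and 107 ± 27.9 CPM with CK666 (SD, n = 3). Pooled over libraries, the level without LIF2i was 984 times that with LIF2i (95% exact conditional interval 421 to 3031), and with CK666 it was 1176 times (503 to 3622), both resting on the 5 counts of a single library, LIF2i replicate 2. Without LIF2i replicate 1 these ratios were 626 and 748, and without the replicate 3 libraries they were 763 and 731.

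Fndc3c1 had 0, 0 and 4 counts with LIF2i. Its levels in the control without LIF2i were 105, 49.6 and 94.7 CPM, and with CK666 they were 65.2, 17.4 and 42.6 CPM. Within each of these groups replicate 2 was the lowest and replicate 1 the highest, and the groups overlapped because CK666 replicate 1 lay above control replicate 2. The means were 83.0 ± 29.3 and 41.7 ± 23.9 CPM (SD, n = 3). The pooled ratio to the level with LIF2i was 1167 (455 to 4284) for the control and 604 (235 to 2217) with CK666, resting on 4 counts in LIF2i replicate 3. Without LIF2i replicate 1 these ratios were 742 and 384, and without all replicate 1 libraries they were 638 and 268.

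Ccdc194 had no count in any library with LIF2i. It stood at 16.8, 14.5 and 21.5 CPM in the control without LIF2i and at 15.1, 12.9 and 18.1 CPM with CK666. The spread was the narrowest of the 3 genes, with a CV of 20.2% and 17.0%, against 57.1% and 26.2% for Car4 and 35.3% and 57.2% for Fndc3c1. Set against a limit of 3 counts per library with LIF2i, Ccdc194 was at least 109-fold higher without LIF2i and at least 94.7-fold higher with CK666. Over LIF2i replicates 2 and 3 alone these bounds were 104 and 90.6.

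**Figure D1:**
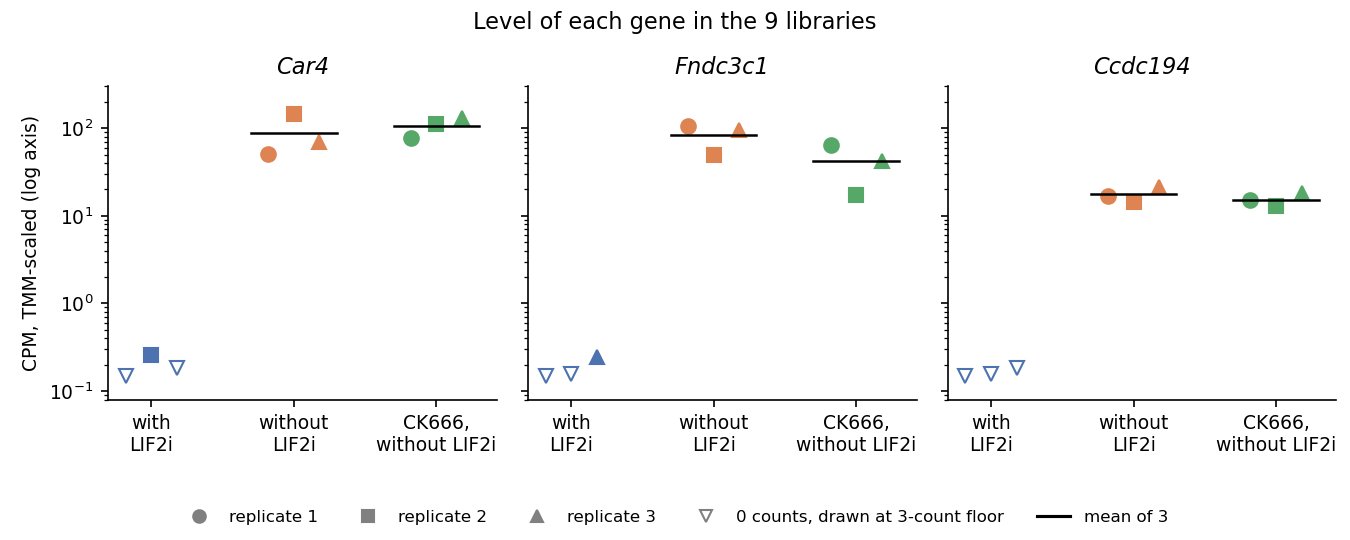
Levels of the 3 genes in each library (CPM after TMM scaling, log axis), by group and replicate, with the mean of 3 libraries as a bar. Open triangles are libraries with 0 counts, drawn at the level of 3 counts. The libraries with LIF2i sit at or below 0.261 CPM and those without it at 12.9 CPM or more.

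Per length, Car4 was the most abundant of the 3 after withdrawal, at 133 ± 64.8 TPM in the control and 159 ± 28.7 TPM with CK666, and its lowest library (89.8 TPM) lay above the highest library of either other gene. Fndc3c1 followed at 32.9 ± 15.5 and 15.0 ± 9.03 TPM, and Ccdc194 at 15.7 ± 3.22 and 13.5 ± 2.62 TPM (SD, n = 3). The ranges of these last 2 genes overlapped in both groups. Within libraries, Fndc3c1 was above Ccdc194 in 3 of 3 control replicates, by 47.9 against 17.1 TPM, 16.9 against 12.1 TPM and 33.8 against 18.02 TPM. With CK666 it was above in replicate 1 (23.9 against 14.5 TPM), below in replicate 2 (5.81 against 10.5) and level in replicate 3 (15.4 against 15.5). By mean TPM among 21897 protein-coding genes, Car4 ranked 1007th in the control and 779th with CK666, Fndc3c1 4322nd and 6906th, and Ccdc194 6722nd and 7268th.

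Nearly all counts came from 1 transcript per gene. Car4-201, the coding transcript of 8 exons and 1256 bases, held 95.6% to 97.7% of Car4 counts in the 6 libraries without LIF2i. In LIF2i replicate 2, by contrast, Car4-201 held 1.90 of the 5 counts and other transcripts of the gene 3.10. Fndc3c1-201, of 27 exons and 4859 bases, held 98.5% to 99.5% of Fndc3c1 counts. The short transcripts of Fndc3c1 shared the remaining 0.514% to 1.47% of counts but 11.7% to 26.1% of the summed TPM, because TPM divides by length, so the gene's TPM leans on few reads more than its CPM does. Fndc3c1-202, a processed transcript of 570 bases, had 7.94, 3.54 and 18.9 estimated counts in the control and 0 in each CK666 library, a difference that was not tested. Ccdc194 has 1 annotated transcript, of 4 exons and 1820 bases.

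Whether the level that each gene reached differed with CK666 was asked by setting CK666 against the control, pair by pair. Fndc3c1 was lower with CK666 in 3 of 3 pairs, at 62.2%, 35.1% and 45.0% of its paired control. Ccdc194 was slightly lower in 3 of 3 pairs, at 89.5%, 89.1% and 84.2%. Car4 was higher in pairs 1 and 3, at 152% and 191%, and lower in pair 2, at 76.1%. In edgeR's quasi-likelihood test with the pair as a block and Benjamini-Hochberg adjustment over 14631 genes, 305 genes (2.08%) passed an adjusted p of 0.05, 1.18% higher and 0.902% lower with CK666, and none of the 3 genes did. This number of calls was unstable: it was 1658 without LIF2i replicate 1, 2 without CK666 replicate 2 and 0 without the pairing, so the 2.08% used as background below holds for this fit with all 9 libraries.

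For Fndc3c1 the log2 change was -1.11 (SE 0.25, 95% interval -1.68 to -0.53), with an unadjusted p of 0.0017 and an adjusted p of 0.058 in edgeR. Its call turned on the libraries in the fit. The adjusted p was 0.0049 with only the 6 libraries without LIF2i, 0.0060 without LIF2i replicate 1, 0.049 without CK666 replicate 1 and 0.0029 without all replicate 1 libraries. It ranged up to 0.67, reached without the pairing, and 4 of 18 alternatives called it, with log2 changes between -1.38 and -0.90 throughout. On counts of Fndc3c1-201 alone the change was -1.10 (adjusted p 0.060).

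For Car4 the log2 change was 0.39 (SE 0.28, interval -0.23 to 1.02, adjusted p 0.47), and for Ccdc194 it was -0.19 (SE 0.20, interval -0.65 to 0.27, adjusted p 0.65). The interval of Ccdc194 leaves room for a change of either sign of well under 1 log2 unit, and that of Car4 for a gain of up to 1.02. Neither was called in any of 18 alternatives. The estimate of Car4 ran from 0.09 to 0.81 as single libraries or pairs were left out, lowest without CK666 replicate 3 and highest without CK666 replicate 2.

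**Figure D2:**
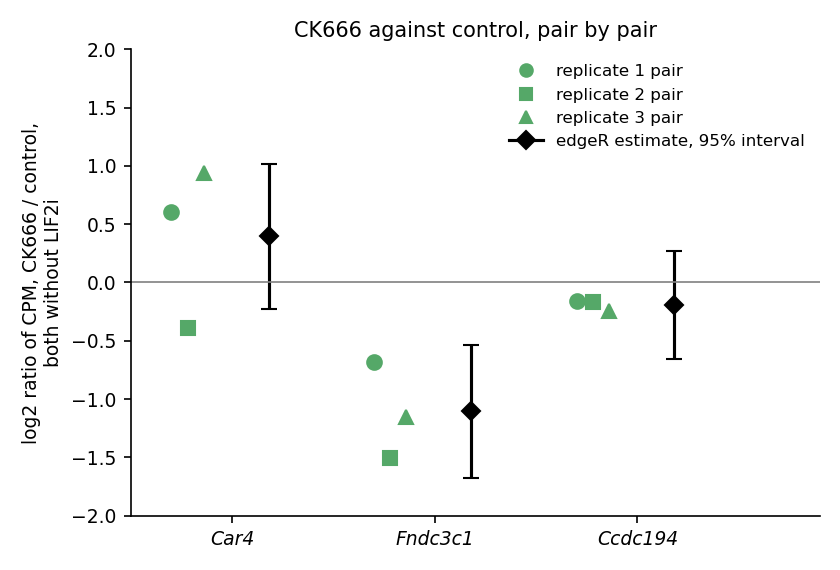
Log2 ratio of CPM, CK666 over control, for each replicate pair (green symbols) and edgeR's estimate with its 95% interval (black). All 3 pairs of Fndc3c1 and of Ccdc194 lie below 0, and the pairs of Car4 lie on both sides.

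The other carbonic anhydrases changed in both directions on withdrawal of LIF2i, against a background in which 5973 of 14631 genes (40.8%) passed the test, 21.1% higher and 19.7% lower. Of 15 listed relatives of Car4, 11 were tested and 6 were called. Car14, another membrane-bound form, rose from 1.60 ± 0.914 to 39.3 ± 10.2 TPM (SD, n = 3; log2 change 5.12, SE 0.48). Car2, an abundant cytosolic enzyme, rose from 34.1 to 160 TPM (2.34, SE 0.43), and Car3, a muscle form, from 0.029 to 4.34 TPM (6.48, SE 0.88). The level of Car3 with LIF2i rests on 2 counts in replicate 2. Its log2 change ran from 5.44 without LIF2i replicate 1 to 9.48 without LIF2i replicate 2. Car3 entered the test only through the groups where it is high, so only a rise could be called. Its call, which is among the 6, is a description. The mitochondrial Car5a (-2.01), Car8 (-2.42), whose product lacks catalytic activity, and the cytosolic Car13 (-0.68) fell. The list's median log2 change was 0.27 over its tested genes, beside 0.01 over all genes. Car4 itself made up at most 0.697% of the summed carbonic anhydrase TPM with LIF2i. Its share was 20.7%, 55.8% and 33.1% in the control and 23.1%, 59.9% and 56.4% with CK666, and replicate 1, where Car2 was highest, had the lowest share in both groups.

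On the list of acid-base transport, which holds carriers that work beside carbonic anhydrases, 4 of 12 tested genes were called on withdrawal, beside 40.8% of all genes. The anion exchanger Slc4a2 (log2 change 0.68, SE 0.21) and the sodium bicarbonate cotransporter Slc4a4 (1.43, SE 0.44) rose. Bsg, the chaperone of the lactate transporters, fell (-0.79, SE 0.22). Slc16a3, a lactate exporter, was at 182 TPM with LIF2i, 358 without it and 128 with CK666, and was called in neither contrast by edgeR, although DESeq2 called it for CK666. The median of this list was 0.31.

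Among the relatives of Fndc3c1, 7 of 11 were tested and 5 were called on withdrawal, beside 40.8% of all genes. Fndc4 (1.66, SE 0.27) and Fndc5 (1.77, SE 0.39), which encodes the precursor of irisin, rose. The closest tested relatives, Fndc3a (-0.45, SE 0.13) and Fndc3b (-2.08, SE 0.25), and Fndc10 (-0.98, SE 0.30) fell, and the list's median was 0.31. Fndc3b went from 17.3 to 3.86 TPM while Fndc3c1 went from 0.0223 to 32.9 TPM. Of the TPM summed over Fndc3a, Fndc3b, Fndc3c1 and the X-linked Fnd3c2, Fndc3c1 held at most 0.176% with LIF2i, 61.7%, 39.7% and 59.0% in the control, and 39.1%, 16.4% and 32.8% with CK666. Its share with CK666 was below that of the paired control in 3 of 3 pairs.

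Over the 3 lists together 15 of 30 tested genes were called on withdrawal, 7 higher and 8 lower, beside 40.8% of all genes, 21.1% higher and 19.7% lower. The 7 higher include Car3, which was near 0 with LIF2i and could only be called higher. CK666 against control called 0 of these 30 in edgeR, where the background was 2.08%. At an unadjusted p under 0.05 there were 7 of 30, beside 19.8% of all genes tested. DESeq2 called 3 of them, Slc16a3, Car13 and Fndc10, and 7.79% of all genes. Without the pairing, where 24.0% of all genes were called, 9 of the 15 withdrawal calls remained, and Car13, Slc4a2, Slc4a4, Bsg, Fndc3a and Fndc10 were no longer called.

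**Figure D3:**
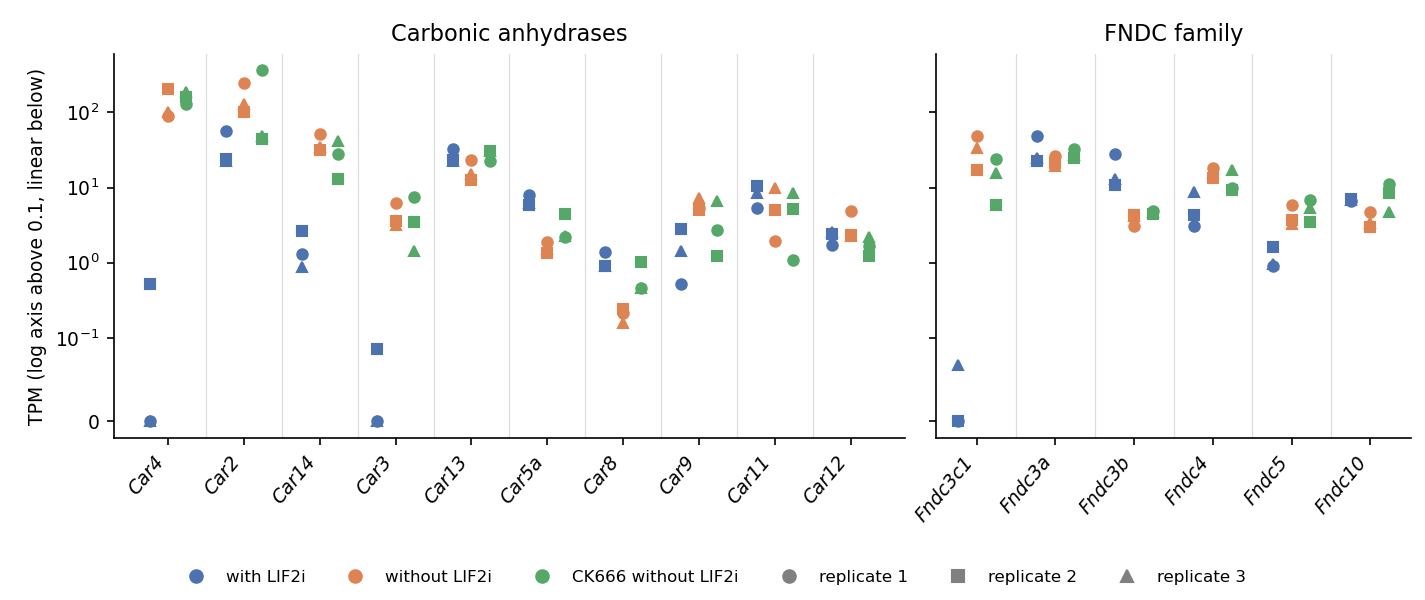
TPM in each library of Car4 and 9 other carbonic anhydrases (left) and of Fndc3c1 and 5 other FNDC genes (right), on an axis that is logarithmic above 0.1 and linear below. Car4, Fndc3c1 and Car3 lie at or near 0 with LIF2i, and the other genes drawn are above 0 in every library.

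The 6 nearest protein-coding genes around each gene, 3 on either side, were read in the same fit. Around Ccdc194 all 6 were tested and 4 were called higher on withdrawal, where 21.1% of all tested genes were called higher. Bst2, an interferon-inducible membrane protein 8.54 kb away, went from 78.9 to 659 TPM (log2 change 3.29, SE 0.36). Tmem221, at 28.5 kb, had a log2 change of 3.02 (SE 0.48), Plvap, an endothelial membrane protein at 8.37 kb, 1.80 (SE 0.52), and Ano8, at 34.2 kb, 0.54 (SE 0.14). Bst2 and Tmem221 were called under all 18 alternatives, and Plvap and Ano8 under 13. Gtpbp3 and Mvb12a lay between them and did not pass the test. Unlike Ccdc194, all 6 had counts with LIF2i.

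Around Fndc3c1, 3 of 6 neighbours were tested. Cysltr1, a leukotriene receptor gene 88.9 kb away and the nearest on its upstream side, was also near 0 with LIF2i. It had at most 4 counts in any library with LIF2i, stood at 3.10, 1.11 and 2.89 TPM in the control, and at 0.203, 0.0896 and 0.185 TPM with CK666. These control and CK666 values did not overlap. Its log2 change was 5.90 (SE 0.96) on withdrawal. Cysltr1 entered the test only through libraries without LIF2i, so only a rise could be called, and its passing the test is a description. The size of this change rests on the counts of LIF2i replicate 2 alone. It ran from 5.12 without LIF2i replicate 1 to 9.82 without LIF2i replicate 2. For CK666 against control the log2 change of Cysltr1 was -3.68 (SE 0.79, adjusted p 0.0501 in edgeR), just short of the threshold. Of 18 alternatives 6 called it, with adjusted p from 0.0005 to 0.44. With at most 14 counts in any CK666 library, its place in this test too leaned on the control, where it is high. Pgk1, a glycolytic enzyme gene, had a log2 change of -1.12 with CK666 (adjusted p 0.088), and Taf9b was called in neither contrast. Gm5127, Rtl3 and Fnd3c2, the neighbouring paralog of Fndc3c1, were too low to test, and Fnd3c2 averaged 0.00697 TPM in the control.

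Around Car4, 5 of 6 neighbours were tested, and Znhit3 was called higher (0.67, SE 0.15) and Usp32 lower (-0.45, SE 0.16) on withdrawal, under 15 and 5 of 18 alternatives, 2 of 5 beside 40.8% of all genes. Myo19, Pigw and Appbp2 were not called. Of the 14 tested neighbours of the 3 genes, edgeR called 0 for CK666, with 6 at an unadjusted p under 0.05 (19.8% of all genes), and DESeq2 called 3 (Appbp2, Znhit3 and Cysltr1; 7.79% of all genes).

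**Figure D4:**
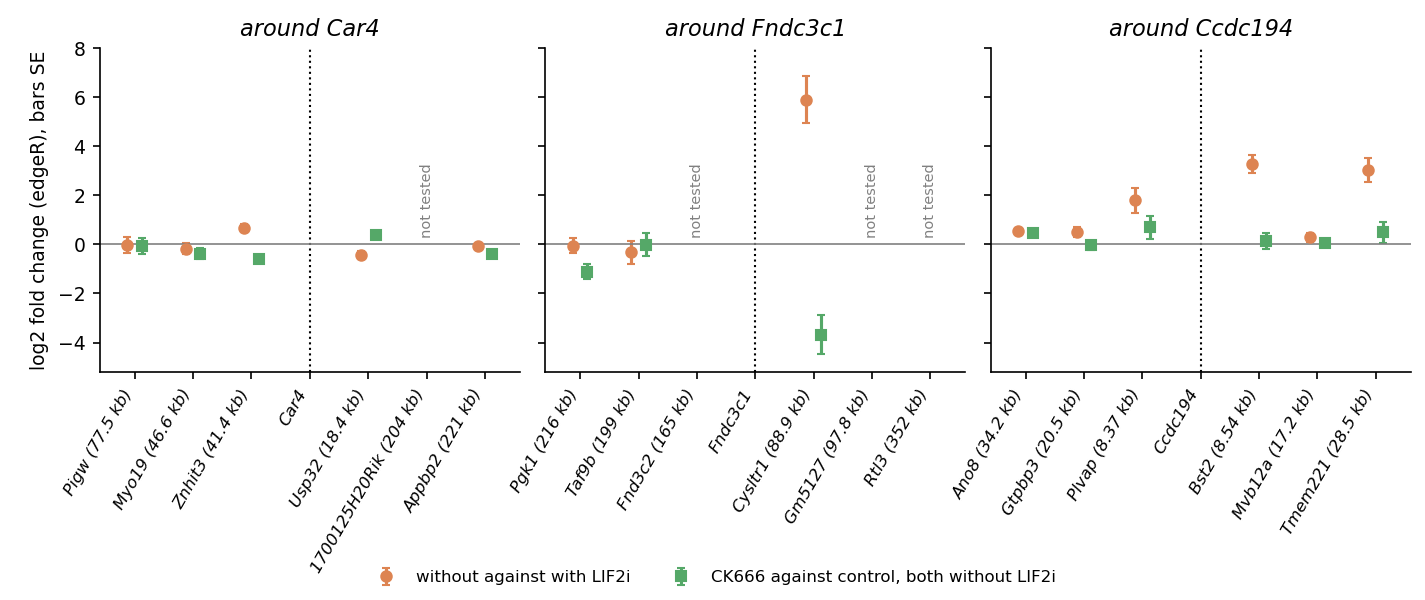
Log2 changes (edgeR, bars SE) of the 3 nearest protein-coding genes on each side, in order along the chromosome with the gap in kb, on withdrawal (orange) and for CK666 against control (green). Dotted lines mark the position of the named gene. Cysltr1 next to Fndc3c1 and Bst2, Tmem221 and Plvap next to Ccdc194 stand above 1.

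Genes with such a switch were counted over the whole annotation. With at most 3 counts in each library with LIF2i and at least 1 CPM in each of the 6 libraries without it, 48 of 35975 genes qualified, and of the 3 genes only Ccdc194 did. At 0 counts with LIF2i 7 remained, and at 5 CPM or more 6 remained. These limits are not divided by length, so a long gene reaches the CPM limit at a lower TPM than a short one. Car4 with 5 counts and Fndc3c1 with 4 lay just outside, and a limit of 5 counts, added after their values were seen, gave 72 genes with all 3 inside. Without LIF2i replicate 1 these numbers were 56 and 105. Within these 72, Car4 had the highest mean TPM over the 6 libraries, Fndc3c1 was 3rd and Ccdc194 8th. Among the 5 most abundant of the 48 were Enpp2, which makes lysophosphatidic acid, the transcription regulator Vrtn, the formative marker Fgf5 and 2610528J11Rik. The ratio of the highest to the lowest CPM over the 6 libraries was 1.66 for Ccdc194, the 2nd lowest of the 72, against 2.89 for Car4 and 6.01 for Fndc3c1.

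Since a gene had to reach 1 CPM in every CK666 library to be among the 72, genes below that level with CK666 are left out, Cysltr1 among them, and no direction is read from the 72 as a group. Fgf5, a signalling factor of the formative state, was called for CK666 against control (35.7 to 4.57 TPM, log2 change -3.16, SE 0.44, adjusted p 0.021 in edgeR), and 10 of 18 alternatives called it. It was the only one of the 72 called, where 2.08% of all genes were called.

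The genes most like each of the 3 were read from the Pearson correlation of log2 CPM over the 9 libraries among 14146 protein-coding genes. This is a description: all genes share the same 9 libraries, and the step on withdrawal dominates, so 319, 354 and 408 genes reached 0.95 for Car4, Fndc3c1 and Ccdc194. Nearest to Car4 were Prss44 (0.993) and Nlrc5 (0.992), then Enho, Ms4a4d and Tmcc3. Over the 6 libraries without LIF2i their values with Car4 spread from 0.19 for Nlrc5 to 0.84 for Enho. Nearest to Fndc3c1 were the secreted proteases Adamts5 (0.997) and Adamts1 (0.996), then Gabra3, Vrtn and Irs4. Over the 6 libraries these had 0.80 to 0.96, with Adamts1 the highest. Nearest to Ccdc194 were the gap junction gene Gja1 (0.996), Ajuba, Kif1a, Arl4c and Ms4a4d, with 0.32 to 0.75 over the 6 libraries. The 6 libraries are among the 9 by which these genes were picked. How many other genes reach such values over the 6 was not counted.

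Between libraries without LIF2i, the 3 genes did not share one order. Control replicate 2 had the most Car4 of its group and the least Fndc3c1 and Ccdc194, and CK666 replicate 3 had the most Car4 and Ccdc194 of its group with the middle level of Fndc3c1.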

How the data were processed

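Each library's deposited table, per the file headers, lists 119414 transcripts, with estimated counts, TPM, length and effective length. The authors' estimated counts are raw: a read that fits several transcripts is split among them, so values can be fractions. The TPM of the authors divides by effective length and has the same total in every library. FastQC, cutadapt 1.8.1, kallisto and sleuth are named in the submitters' processing notes, with the builds GRCh38 and mm10 and no roles. Whether counting used strand is not given in the sources used here.

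GENCODE M21 gave the gene of each transcript by Ensembl ID. This worked for 116728 transcripts (97.8%), and the rest held 0.880% to 1.06% of a library's counts and were left out. Estimated counts were summed per gene and rounded. Of 35975 genes, 14631 passed edgeR's expression filter. One robust quasi-likelihood model (edgeR 4.0.16, R 4.3.3) was fitted to all 9 libraries with TMM scaling, group and replicate number, leaving 4 residual degrees of freedom, with Benjamini-Hochberg adjustment over all genes tested and a threshold of 0.05. The design text calls the replicates paired. As a check, deviations from the group means correlated at 0.31 to 0.66 between libraries of the same number and at -0.53 to 0.29 between different numbers. The p-values of this fit measure the spread left between these cultures once differences between replicate numbers are taken out. Only the fit without the block keeps those differences in the spread.

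Genes named beside the 3 are fixed lists (carbonic anhydrases, acid-base transport, FNDC genes, cell type markers), the 3 nearest protein-coding genes on each side, the 5 with the highest Pearson r of log2 CPM (prior count 2), and the 5 most abundant genes with the same switch. Some of these genes are counted but not reported by name here. The 3 genes and all lists were chosen with earlier results of these data known. Alternatives were a fit without the block, DESeq2 1.42.0, RLE scaling, no filter, 6 libraries, length-scaled TPM and leaving out libraries. A limit of 5 counts for the same switch, counts of the main transcript alone and ratios without LIF2i replicate 1 were added after the data were seen. The models were tested on simulated data.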

Additional observations from a re-analysis of the deposited data

How the results depend on the processing

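No alternative changed the sign of Car4, Fndc3c1 or Ccdc194 for CK666 against control. Fndc3c1 passed the threshold when only the 6 libraries of both groups were fitted (log2 change -1.12), and ranged from -1.38 to -0.90 as libraries or replicate numbers were left out, while Car4 ranged from 0.09 to 0.81 and Ccdc194 from -0.23 to -0.16. Calls on withdrawal numbered 5973, 3513 without the replicate block and 3104 to 6593 with libraries left out, lowest without all replicate 3 libraries and 3742 without all replicate 2 libraries. Calls for CK666 numbered 305, and varied widely: 0 without the replicate block (1249 genes at an unadjusted p under 0.05), 1140 with DESeq2, 567 without the expression filter, 1375 with 6 libraries, 92 with length-scaled TPM and 0 to 1812 with libraries left out. That count was 1658 without LIF2i replicate 1 and 1812 without all replicate 1 libraries, and 0 without all replicate 3 libraries, 2 without CK666 replicate 2, 4 without control replicate 3, 5 without control replicate 2, 8 without all replicate 2 libraries, 30 without CK666 replicate 3, 120 without LIF2i replicate 3 and 152 without control replicate 1. Listed genes called on withdrawal numbered 15, 9 without the replicate block and 7 to 17 with libraries left out. Listed genes called for CK666 numbered 0 (3 with DESeq2, 2 without the filter, 2 with 6 libraries, and 0 to 6 with libraries left out). The cause of these shifts was not tested. Of the 22 listed and neighbouring genes called on withdrawal, 9 were called under all 18 alternatives (among them Car3, Car5a, Car14, Fndc3b, Fndc4, Cysltr1, Bst2 and Tmem221). Car3 and Cysltr1 had at most 2 and 4 counts in any library with LIF2i, so for them only a rise could be called. Of the 5 genes named as most like each, rank correlation kept 0, 1 and 0 and a prior count of 0.5 kept 4, 2 and 4, for Car4, Fndc3c1 and Ccdc194. With 3 libraries a group and 0 to 5 counts with LIF2i, the intervals on each switch cover counting error only, leave out the spread between cultures and the choice of the genes on these values, and so do not bound its size, and 0 counts cannot be read as no transcription.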
